A study of Homo sapiens with 21 samples.

Results

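The BCL2 family of survival and death genes was followed through all 7 treatment groups of the series. The 10 genes were chosen by name: the survival genes MCL1, BCL2L1, BCL2 and BCL2L2, the BH3-only genes BCL2L11, BBC3, PMAIP1 and BID, and the effector genes BAX and BAK1. All 10 were found by their NCBI identifiers among the 28395 genes of the count table, and all 10 were among the 16036 genes that passed the filter on low counts. Hs578T cells, an established mesenchymal triple-negative breast cancer line, were collected 8 h after treatment with DMSO, 0.1 μM THZ531, 3.16 μM lapatinib, 1.0 μM nilotinib, 1.0 μM THZ531, or 0.1 μM THZ531 together with either lapatinib or nilotinib. THZ531 blocks the kinases CDK12 and CDK13, which keep RNA polymerase II elongating by phosphorylating its tail. Lapatinib and nilotinib act on tyrosine kinases. The combinations used the doses of the single treatments, all groups came from this 1 cell line, and each group had 3 replicates, which gave 21 libraries.

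BCL2 family proteins decide whether the outer membrane of the mitochondrion stays closed. MCL1, BCL-XL (the product of BCL2L1), BCL2 and BCL-w (the product of BCL2L2) hold the membrane closed by binding their death-promoting relatives, whereas BAX and BAK form the pores through which cytochrome c leaves. The BH3-only proteins BIM (BCL2L11), PUMA (BBC3), NOXA (PMAIP1) and BID neutralize the survival proteins or activate BAX and BAK. MCL1 protein and mRNA are both short-lived, for which reason MCL1 is often followed in cells treated with inhibitors of transcriptional kinases.

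The total count per library was 97612207 to 112229052, and the correlation of log2 CPM (counts scaled to the library size with TMM factors) of a library with its group mates was 0.991 to 0.994. Apart from ERBB2, the markers read here lay at the levels looked for in a mesenchymal triple-negative line. In DMSO the mesenchymal genes VIM, CDH2, FN1, CD44 and AXL lay at mean levels of 531 to 6845 CPM, and CDH1, EPCAM, ESR1 and PGR at 0 to 0.364 CPM. ERBB2, which encodes a target of lapatinib, was not near 0 (37.5 ± 4.09 CPM, SD, n = 3). A pair of libraries stood apart from their group mates in the genes described here. These were replicate 2 of 1.0 μM THZ531, whose correlation with its mates of 0.99074 was the lowest of the 21, and replicate 1 of nilotinib, at 0.99332. The correlation does not set this pair apart. Replicate 1 of the lapatinib combination (0.99088) and of the nilotinib combination (0.99095) lay almost as low as the lowest. Replicate 1 of lapatinib (0.99293) lay below that of nilotinib. Results that rest on the pair are given with and without it. Fewer transcribing cells and less RNA per cell cannot be told apart in such bulk samples, and all CPM are relative to the other RNA of the same library.

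The genes lie at separate places in the genome, with coordinates from RefSeq on GRCh38.p14. MCL1 lies at chr1:150574558-150579610 on the minus strand, BCL2L1 at chr20:31664452-31723963 on the minus strand, BCL2 at chr18:63123346-63320090 on the minus strand and BCL2L2 at chr14:23306833-23311751 on the plus strand. BCL2L11 lies at chr2:111120914-111168445 on the plus strand, BBC3 at chr19:47220824-47232860 on the minus strand, PMAIP1 at chr18:59899996-59904305 on the plus strand and BID at chr22:17734138-17774665 on the minus strand. BAX lies at chr19:48954875-48961798 on the plus strand and BAK1 at chr6:33572552-33580276 on the minus strand. Reads were counted on the exons of each gene without regard to strand. BCL2L2 shares exons with the readthrough gene BCL2L2-PABPN1, which was listed at 0 counts in all 21 libraries, so that reads in shared exons cannot be assigned with certainty. An antisense RNA overlaps BCL2L1, and its reads cannot be told apart from those of BCL2L1.

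Start regions are printed for 2 members that rose (BCL2L11 and PMAIP1) and for 1 that fell (BAK1), because these genes moved in opposite directions and all 3 windows hold the same short motif. RefSeq start regions were matched for 8 of the 10 genes, and not for MCL1 and BCL2L2. The 250 bases before the annotated start are given 5′ to 3′ on the strand of the gene, for BCL2L11 at chr2:111120664-111120913, for PMAIP1 at chr18:59899746-59899995 and for BAK1 at chr6:33580277-33580526, all on GRCh38.p14. Capitals mark matches to GGGCGG, the core of a GC box, and to CCAAT, on either strand.
BCL2L11: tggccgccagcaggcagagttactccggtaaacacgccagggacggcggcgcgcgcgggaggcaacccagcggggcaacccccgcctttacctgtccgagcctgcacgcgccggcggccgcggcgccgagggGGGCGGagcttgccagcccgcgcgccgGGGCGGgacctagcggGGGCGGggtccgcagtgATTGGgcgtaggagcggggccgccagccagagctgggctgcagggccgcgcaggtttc
PMAIP1: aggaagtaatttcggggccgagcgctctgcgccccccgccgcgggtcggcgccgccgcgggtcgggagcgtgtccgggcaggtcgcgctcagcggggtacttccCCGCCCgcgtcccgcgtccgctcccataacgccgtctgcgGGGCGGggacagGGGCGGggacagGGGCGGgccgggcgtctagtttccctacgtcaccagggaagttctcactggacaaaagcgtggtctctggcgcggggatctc
BAK1: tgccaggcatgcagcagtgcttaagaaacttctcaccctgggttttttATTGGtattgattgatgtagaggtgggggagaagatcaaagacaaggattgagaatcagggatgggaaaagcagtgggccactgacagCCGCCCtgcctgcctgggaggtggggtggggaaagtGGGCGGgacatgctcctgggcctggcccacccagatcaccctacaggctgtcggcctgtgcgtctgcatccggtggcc
GGGCGG occurred 3 times in the BCL2L11 window, 4 times in that of PMAIP1 and 2 times in that of BAK1, and 42.6% of 35116 such windows in the genome held at least 1 match. CCAAT occurred 1 time in the BCL2L11 and BAK1 windows and 0 times in that of PMAIP1, against 32.0% of all windows with a match. The share of G and C was 76.8% for BCL2L11, 72.8% for PMAIP1 and 58.0% for BAK1, and its median over all windows was 58.0%. TATAAA, held by 10.7% of all windows, was found on either strand only in the window of BCL2L1 among the 8 members matched. CACGTG, an E-box to which MYC can bind, was held by 6.3% of all windows and by those of BAX, BBC3 and BID. TGACGTCA and TGATGNAA, the forms bound by CREB and ATF4 family proteins, were in 1.6% and 3.1% of all windows and in none of these 8. No matches overlap each other in the printed windows. They describe the windows and say nothing about which factors bind there.

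In untreated cells the survival genes MCL1 and BCL2L1 and both effectors were the most abundant members, BCL2L2 lay in the middle range, and BCL2 itself was among the least. Levels between genes were compared as CPM per kilobase of exon, with exons from GENCODE v44. The authors counted per NCBI gene, so that these levels are approximate. For MCL1 the GENCODE exons cover 6222 bases, more than its RefSeq span of 5.05 kb. In DMSO these were 41.7 ± 1.43 for MCL1, 26.1 ± 0.598 for BCL2L1, 24.2 ± 0.964 for BAK1 and 16.8 ± 1.23 for BAX (CPM per kilobase, SD, n = 3). PMAIP1 (5.39 ± 0.424), BID (4.53 ± 0.276) and BCL2L2 (3.88 ± 0.432) formed a middle range, followed by BCL2L11 (0.805 ± 0.0395), BCL2 (0.148 ± 0.0110) and BBC3 (0.147 ± 0.0282). The libraries of BCL2 and BBC3 overlapped on this scale, as did those of BID and BCL2L2, whereas the ranges of BCL2L1 and BAK1 did not overlap. The order depends on the length used: per kilobase of the longest transcript BAX (32.0) lay above BAK1 (24.2) and BID (8.02) above PMAIP1 (6.21), and the levels of BAX, BID, BCL2 and BBC3 moved by over 1.5 times. BCL2 was read 24 to 253 times per library and BBC3 43 to 195 times, so that their changes carry the widest intervals of the 10 genes. With 1.0 μM THZ531, PMAIP1 at 9.60 ± 0.688 CPM per kilobase and BCL2L1 at 11.3 ± 1.19 had come close to each other, although the libraries of the 2 genes still did not overlap.

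The first question is what the compounds did to these genes when given alone at doses that were later combined. With lapatinib, 0 of 10 members passed the test in edgeR, beside 0.312% of all tested genes called in either direction. With nilotinib, 0 of 10 passed in edgeR, beside 0.343% of all genes. At an unadjusted p under 0.05 in edgeR there were 2 with lapatinib (PMAIP1 and BAK1) and 2 with nilotinib (BCL2L11 and BBC3). DESeq2 called 0 in each. All shares of genes here and below count edgeR calls at an adjusted p under 0.05, and none are given for an unadjusted p or for DESeq2. PMAIP1 read 15.98, 14.3 and 15.4 CPM with lapatinib and 12.6, 10.8 and 12.04 in DMSO. These groups did not overlap, but the log2 fold change (FC) of 0.37 (95% confidence interval, CI, 0.15 to 0.59) had an adjusted p of 0.229 in edgeR. BCL2L11 read 3.74, 4.28 and 4.45 CPM with nilotinib, below the 5.43, 5.16 and 5.69 CPM of DMSO, with a log2 FC of -0.39 (CI -0.69 to -0.08) and an adjusted p of 0.334 in edgeR, or -0.32 without nilotinib replicate 1. BBC3 was at 1.37 CPM in nilotinib replicate 1 and at 0.61 and 0.49 CPM in its mates. Its log2 FC was 0.81 with this library and 0.23 without it.

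With 0.1 μM THZ531, 1 member was called higher and 0 lower, with 2 lower at an unadjusted p under 0.05 (BCL2L2 and BAX) while DESeq2 called BAX lower and BCL2L11 and BAK1 higher. Over all tested genes, edgeR called 1.78% higher and 4.31% lower at an adjusted p under 0.05. BCL2L11, which encodes BIM, read 7.45, 8.01 and 7.48 CPM against 5.43, 5.16 and 5.69 CPM in DMSO. All treated libraries lay above all DMSO libraries, with a log2 FC of 0.49 (CI 0.19 to 0.80, adjusted p = 0.0476 in edgeR). This call lay at the threshold and was lost in 17 of the 21 fits that left out a library, although the log2 FC stayed between 0.46 and 0.53. Without replicate 2 of 1.0 μM THZ531, which is in neither group compared, it was 0.49 (adjusted p = 0.00357 in edgeR). Among the effectors, BAX read 34.4, 36.3 and 36.1 CPM against 40.2, 46.5 and 43.5 CPM in DMSO, a log2 FC of -0.29 with an adjusted p of 0.0683 in edgeR. BAK1 read 63.4, 62.5 and 60.0 CPM against 55.0, 51.0 and 54.3 CPM, a log2 FC of 0.21 with an adjusted p of 0.0773 in edgeR. Both effectors lay outside the DMSO range, on opposite sides, without passing the test, although BAX was called without replicate 2 of 1.0 μM THZ531 (-0.29, adjusted p = 0.0140 in edgeR). For MCL1 the log2 FC was 0.09, with a CI of -0.16 to 0.34.

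**Figure D1:**
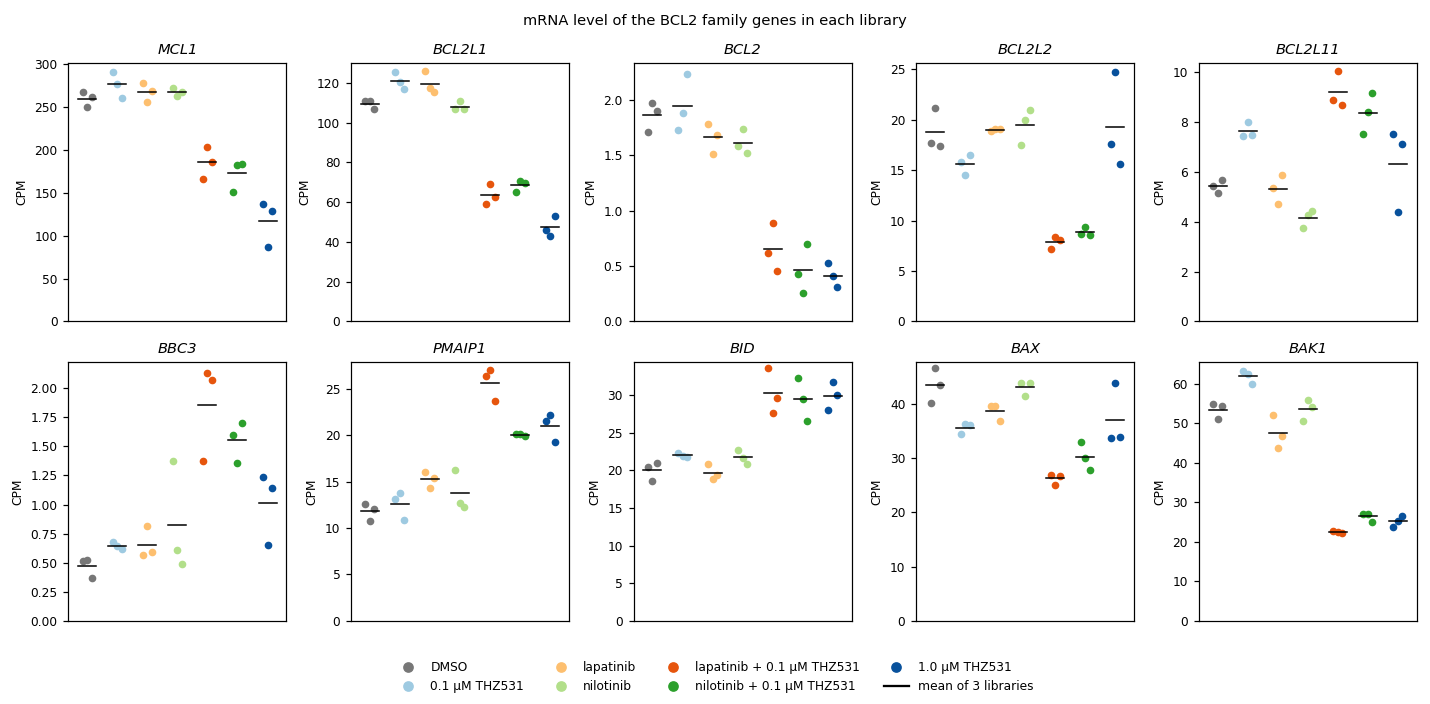
CPM of the 10 genes (y axes, linear from 0) in each of the 21 libraries, grouped by treatment and coloured as in the key, with a line at the mean of 3 libraries. MCL1, BCL2L1, BCL2 and BAK1 lie lower, and PMAIP1 and BID higher, in all libraries of both combinations and of 1.0 μM THZ531 than in any library of DMSO, while BCL2L2 lies lowest in the combinations.

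The second question is what the combination treatments and the high dose of THZ531 did. Against DMSO, both combinations lowered the same 6 members (MCL1, BCL2L1, BCL2, BCL2L2, BAX and BAK1). Both raised the same 4 (BCL2L11, BBC3, PMAIP1 and BID). All survival and effector genes among the chosen members thus fell, and all BH3-only genes among them rose. This does not hold for the whole classes, as the BH3-only gene BMF, which is not among the chosen members, fell. With 1.0 μM THZ531, 5 members were lower and 3 higher, and BCL2L2 and BCL2L11 did not pass the test. These counts stand beside a wide response of all tested genes, of which 37.8% were called lower and 34.3% higher with the lapatinib combination, 37.3% and 33.7% with the nilotinib combination, and 36.8% and 33.1% with 1.0 μM THZ531. The median log2 FC of the 4 survival genes was -1.02, -0.88 and -1.18 in this order, and that of the 4 BH3-only genes 0.94, 0.69 and 0.71, against -0.01 over all tested genes in each.

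These directions are relative to the bulk of mRNA. Scaling to the 13 mRNAs encoded by mitochondria, which another polymerase transcribes, moved the median of all tested genes to -0.69 with the lapatinib combination, -0.63 with the nilotinib combination and -0.55 with 1.0 μM THZ531. The share of counts on these 13 mRNAs was 1.25% in DMSO, 1.60% with the lapatinib combination, 1.56% with the nilotinib combination and 1.54% with 1.0 μM THZ531. On that scale the 6 falling genes stayed called lower in both combinations, and 6 members were called lower with 1.0 μM THZ531. Called higher were 2 members with the lapatinib combination (BBC3 and PMAIP1), 1 with the nilotinib combination (BBC3) and 0 with 1.0 μM THZ531. Of all tested genes, 58.4% were lower and 5.3% higher on that scale with the lapatinib combination. These shares were 55.9% and 4.83% with the nilotinib combination, and 52.5% and 4.35% with 1.0 μM THZ531. The counts of lower calls were thus near the shares of all genes. BID turned to -0.09 and -0.06 in the combinations under that scaling. Upper-quartile scaling gave 4 lower and 4 higher for 1.0 μM THZ531.

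Among the survival genes, MCL1 fell in all 3 strong treatments. It read 267, 249.6 and 261 CPM in DMSO, 167, 204 and 186 CPM with the lapatinib combination, 151, 183 and 184 CPM with the nilotinib combination, and 137, 86.8 and 129 CPM with 1.0 μM THZ531. No treated library of these groups reached the DMSO range, and the libraries of 1.0 μM THZ531 lay below those of both combinations. The 9 libraries of 0.1 μM THZ531, lapatinib and nilotinib alone lay between 255 and 291 CPM. The log2 FC was -0.48 (CI -0.73 to -0.24, adjusted p = 0.00109), -0.59 (CI -0.84 to -0.34, adjusted p = 0.000176) and -1.14 (CI -1.39 to -0.89, adjusted p = 5.19e-08) in edgeR. Without the lowest library, replicate 2 of 1.0 μM THZ531, the last was -0.97.

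BCL2L1, which encodes BCL-XL, followed MCL1 closely. It read 111, 111 and 107 CPM in DMSO and 59.1, 69.3 and 62.5 CPM with the lapatinib combination. With the nilotinib combination it read 65.0, 70.5 and 69.8 CPM, and with 1.0 μM THZ531 46.2, 43.2 and 52.95 CPM. The 3 treated groups lay below DMSO without overlap, with log2 FC of -0.78 (SE 0.0727), -0.68 (SE 0.0726) and -1.21 (SE 0.0734). In edgeR the adjusted p was 7.43e-09, 6.34e-08 and 2.04e-11. With the single treatments at the doses combined, BCL2L1 lay between 107 and 126 CPM.

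BCL2 fell the most of the 10 genes, from a low level. It lay between 1.52 and 2.24 CPM in the 9 libraries of the single treatments at the doses combined. It read 1.71, 1.98 and 1.91 CPM in DMSO, and 0.62, 0.89 and 0.46 CPM with the lapatinib combination. In the nilotinib combination it read 0.43, 0.26 and 0.70 CPM and with 1.0 μM THZ531 0.52, 0.41 and 0.31 CPM. The log2 FC was -1.51 (CI -2.03 to -0.98), -2.002 (CI -2.55 to -1.45) and -2.16 (CI -2.72 to -1.61), with adjusted p of 2.34e-05, 1.06e-06 and 4.73e-07 in edgeR. The intervals overlap, and the groups were not called different from each other.

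BCL2L2, which encodes BCL-w, fell in the combinations but was not called with 1.0 μM THZ531. It read 17.7, 21.2 and 17.5 CPM in DMSO, 7.18, 8.41 and 8.11 CPM with the lapatinib combination and 8.71, 9.36 and 8.62 CPM with the nilotinib combination. With 1.0 μM THZ531 it read 17.6, 24.8 and 15.6 CPM, which spans the DMSO range. The lowest library of the single treatments at the doses combined read 14.5 CPM. The log2 FC was -1.25 (CI -1.52 to -0.98, adjusted p = 3.85e-08) and -1.08 (CI -1.35 to -0.81, adjusted p = 3.08e-07) in the combinations, and 0.04 (CI -0.22 to 0.30, adjusted p = 0.782) with 1.0 μM THZ531, in edgeR. Without replicate 2 of 1.0 μM THZ531 the last value was -0.18 (adjusted p = 0.125 in edgeR), and with scaling to mitochondrial mRNAs it was -0.49 and called lower.

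Among the BH3-only genes, BBC3 (PUMA) had the highest rise of the 10 members. It read 0.52, 0.53 and 0.37 CPM in DMSO, 1.38, 2.13 and 2.07 CPM with the lapatinib combination, 1.60, 1.36 and 1.70 CPM with the nilotinib combination and 1.24, 0.65 and 1.14 CPM with 1.0 μM THZ531. All 9 treated libraries lay above DMSO. With 0.1 μM THZ531 BBC3 read 0.675, 0.646 and 0.619 CPM, and with lapatinib 0.566, 0.813 and 0.590 CPM. In log2 FC this was 1.98 (CI 1.33 to 2.64, adjusted p = 1.14e-05), 1.72 (CI 1.07 to 2.38, adjusted p = 6.27e-05) and 1.10 (CI 0.44 to 1.77, adjusted p = 0.00446) in edgeR, and the last was 1.34 without replicate 2.

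PMAIP1 (NOXA), whose protein binds MCL1 and promotes its breakdown, rose from 12.6, 10.8 and 12.04 CPM in DMSO to 26.4, 27.0 and 23.6 CPM with the lapatinib combination. It read 20.1, 20.1 and 19.9 CPM with the nilotinib combination and 21.6, 22.1 and 19.3 CPM with 1.0 μM THZ531. Against DMSO the log2 FC was 1.12 (SE 0.106), 0.77 (SE 0.105) and 0.83 (SE 0.105), with adjusted p of 9.38e-09, 2.05e-06 and 7.60e-07 in edgeR. The groups did not overlap with DMSO.

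BID, which caspase-8 cleaves to link death receptors to mitochondria, rose by similar amounts in the 3 treatments. It read 20.5, 18.6 and 20.9 CPM in DMSO, 33.6, 27.7 and 29.6 CPM with the lapatinib combination, 32.3, 29.5 and 26.6 CPM with the nilotinib combination and 28.0, 31.7 and 30.0 CPM with 1.0 μM THZ531. The treated libraries overlapped each other but not DMSO. Its change in log2 FC was 0.60 (CI 0.42 to 0.77), 0.56 (CI 0.38 to 0.73) and 0.58 (CI 0.40 to 0.76). The adjusted p was 2.46e-06, 6.12e-06 and 4.18e-06 in edgeR.

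BCL2L11 (BIM) read 8.89, 10.1 and 8.67 CPM with the lapatinib combination and 7.52, 8.39 and 9.15 CPM with the nilotinib combination, above the 5.16 to 5.69 CPM of DMSO. The log2 FC was 0.76 (CI 0.46 to 1.06, adjusted p = 9.26e-05) and 0.62 (CI 0.32 to 0.92, adjusted p = 0.000743) in edgeR. With 1.0 μM THZ531 it read 7.51, 4.38 and 7.10 CPM. Replicates 1 and 3 lay above DMSO and replicate 2 below it, so that the log2 FC of 0.22 was not called (adjusted p = 0.182 in edgeR), whereas without replicate 2 it was 0.43 and called (adjusted p = 0.00186).

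The effectors fell together with the survival genes. BAK1 read 55.0, 51.0 and 54.3 CPM in DMSO, 22.7, 22.5 and 22.1 CPM with the lapatinib combination, 27.2, 27.1 and 25.04 CPM with the nilotinib combination and 23.8, 25.3 and 26.7 CPM with 1.0 μM THZ531. The log2 FC was -1.25 (SE 0.0710), -1.01 (SE 0.0706) and -1.08 (SE 0.0707), and its adjusted p of 4.42e-12 was the lowest among the 10 members for the lapatinib combination in edgeR. BAX read 40.2, 46.5 and 43.5 CPM in DMSO, 26.9, 25.1 and 26.7 CPM with the lapatinib combination and 32.9, 29.9 and 27.8 CPM with the nilotinib combination. Its log2 FC was -0.73 (CI -0.92 to -0.54, adjusted p = 5.45e-07) and -0.52 (CI -0.71 to -0.33, adjusted p = 3.47e-05) in edgeR. With 1.0 μM THZ531 BAX read 33.7, 43.8 and 33.8 CPM, which overlaps DMSO, and the call at a log2 FC of -0.23 (adjusted p = 0.0312 in edgeR) was lost with RLE or upper-quartile scaling, in a fit of only the groups compared, and in 4 of the 21 fits that left out a library. Without replicate 2 the log2 FC was -0.36.

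**Figure D2:**
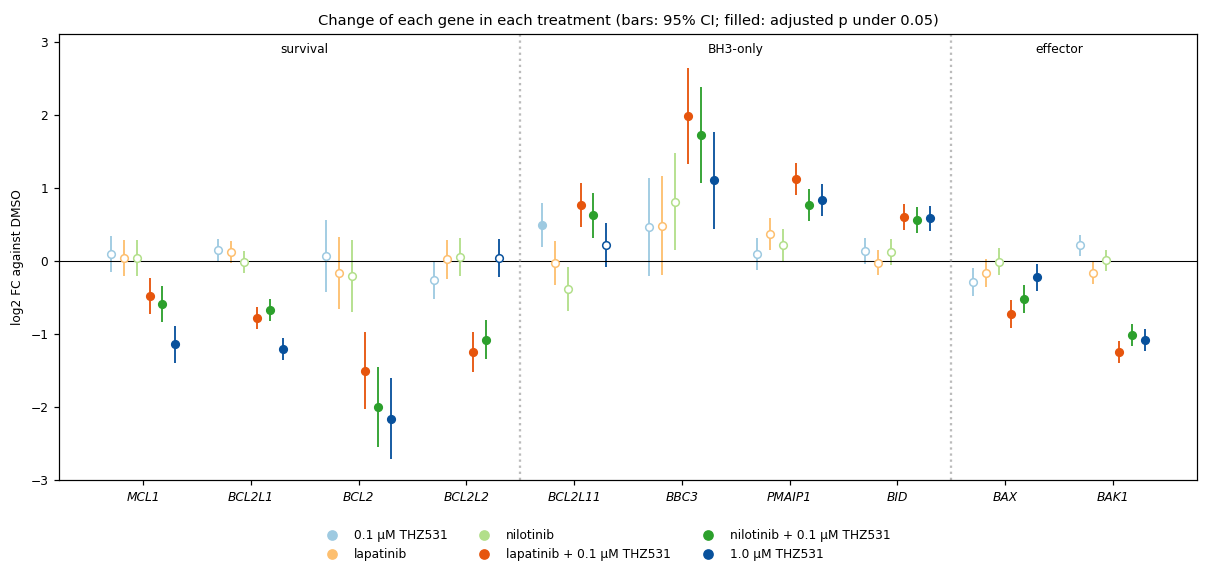
log2 FC against DMSO (y axis) of each of the 10 genes (x axis) in the 6 treatments, with 95% CI from edgeR and filled points at an adjusted p under 0.05. The survival genes lie below 0 and the BH3-only genes above 0 in both combinations, and the points of BCL2L2 and BCL2L11 for 1.0 μM THZ531 are open at 0.04 and 0.22.

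The third question is whether the inhibitors and 0.1 μM THZ531 together did more than the sum of their separate changes. An interaction term, which is the log2 FC of the combination minus those of both single treatments, was called in 8 of 10 members for lapatinib (5 lower and 3 higher) and in 8 of 10 for nilotinib (5 lower and 3 higher). Over all tested genes 32% were lower and 28.2% higher in the lapatinib term, and 31.2% and 25.6% in the nilotinib term. Of the survival genes, BCL2 had terms of -1.41 and -1.86, BCL2L1 of -1.05 and -0.80, BCL2L2 of -1.002 and -0.87 and MCL1 of -0.62 and -0.72, for lapatinib and nilotinib in this order. BAK1 had the lowest adjusted p in both, with terms of -1.30 (SE 0.0991, adjusted p = 1.14e-09) and -1.24 (SE 0.0989, adjusted p = 2.47e-09) in edgeR. BAX was at -0.27 and -0.23 and was not called in either, although the first was called without replicate 2 of 1.0 μM THZ531 (adjusted p = 0.0203 in edgeR), which entered through the shared estimate of spread. The terms of PMAIP1 were 0.66 and 0.45 and those of BID 0.49 and 0.30, all called. The nilotinib term of BID lost its call in 8 of the 21 fits that left out a library, with an adjusted p of up to 0.105 in edgeR.

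The interaction of BBC3 was 1.04 with lapatinib at an adjusted p of 0.0498 in edgeR, which became 0.0535 with the replicate number as a block and was lost in 14 of the 21 fits that left out a library. With nilotinib it was 0.45 (adjusted p = 0.397 in edgeR), and 1.04 (adjusted p = 0.0197) without nilotinib replicate 1. BCL2L11 had terms of 0.30, not called, with lapatinib and 0.51 (adjusted p = 0.0387 in edgeR) with nilotinib, the second of which lost its call in 8 of the 21 fits that left out a library, among them the one without nilotinib replicate 1 (0.46, adjusted p = 0.0810). The higher calls of both interactions depended on the scaling. Library size alone gave 6 lower calls in each, beside 1 higher in the lapatinib term and 0 in the nilotinib term. Scaling to mitochondrial mRNAs gave 6 lower and 0 higher in each. With that scaling 44.4% of all tested genes were lower and 3.7% higher in the lapatinib term, and 40.1% and 3.7% in the nilotinib term.

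Each combination also differed from its parts when these were compared one at a time. Against 0.1 μM THZ531, 6 members were lower and 3 higher in the lapatinib combination (36.1% and 35% of all tested genes) and likewise in the nilotinib combination (35.6% and 34.3%). BCL2L11 was the member not called, with log2 FC of 0.27 (CI -0.03 to 0.57) and 0.13 (CI -0.17 to 0.43). The first was called higher without replicate 2 of 1.0 μM THZ531 (adjusted p = 0.0192 in edgeR). Scaling to mitochondrial mRNAs turned both to lower calls, at -0.42 (adjusted p = 0.0354 in edgeR) and -0.50 (adjusted p = 0.0120). BAX in the nilotinib combination, at -0.24, lost its call in 4 of the 21 fits that left out a library. Against lapatinib alone its combination had 6 lower and 4 higher (37.4% and 34.9% of all tested genes), and against nilotinib alone 6 lower and 4 higher (36.7% and 33.6%). Scaling to mitochondrial mRNAs gave 7 lower and 2 higher, 7 and 1, 6 and 1, and 6 and 1 in these 4 comparisons. With that scaling the shares of all tested genes were 56.9% lower and 4.92% higher, 54% and 4.35%, 52.7% and 7.71%, and 48.1% and 7.48%. Library size alone gave 6 lower and 2 higher against nilotinib. BBC3 in the nilotinib combination was called higher than in nilotinib alone at 0.91 although its libraries overlapped, and was 1.49 higher without nilotinib replicate 1. That call was lost without nilotinib replicate 2 or 3.

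THZ531 itself can be compared between its doses. From 0.1 to 1.0 μM, 4 members were lower (MCL1 at -1.23, BCL2L1 at -1.35, BCL2 at -2.23 and BAK1 at -1.30) and 3 higher (PMAIP1 at 0.74, BID at 0.44 and BCL2L2 at 0.31), beside 35.9% and 34.3% of all tested genes. The BCL2L2 groups overlapped, and its call (adjusted p = 0.0370 in edgeR) was lost without replicate 2 of 1.0 μM THZ531 (0.09, adjusted p = 0.461) and without replicate 1 or 2 of 0.1 μM THZ531. BCL2L11 had a log2 FC of -0.27 (adjusted p = 0.0989 in edgeR), and of -0.07 without that library. BBC3 was not called at 0.64, but was called without that library (0.88, adjusted p = 0.0202 in edgeR). Library size alone gave 5 lower and 2 higher, upper-quartile scaling 4 and 5, and scaling to mitochondrial mRNAs 6 and 0. With the last, 50.7% of all tested genes were lower and 4.73% higher. BCL2L11 (-0.83, adjusted p = 8.56e-05 in edgeR) and BAX (-0.48, adjusted p = 0.00575) were then called lower.

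The combinations were then compared with 1.0 μM THZ531, the high dose of the CDK12/13 inhibitor on its own. In the lapatinib combination 2 members were lower and 5 higher than with 1.0 μM THZ531 (16.1% and 12.8% of all tested genes), and in the nilotinib combination 2 were lower and 2 higher (13% and 11.2%). BCL2L2 differed most, by -1.29 (CI -1.56 to -1.02, adjusted p = 7.30e-07) and -1.12 (CI -1.39 to -0.85, adjusted p = 3.38e-06) in edgeR, and by -1.07 and -0.90 without replicate 2 of 1.0 μM THZ531. MCL1 was higher in the combinations by 0.66 (CI 0.41 to 0.91) and 0.56 (CI 0.31 to 0.80), and by 0.48 and 0.38 without that library. BCL2L1 was higher by 0.42 (CI 0.27 to 0.58) and 0.53 (CI 0.38 to 0.68). MCL1, BCL2L1 and BCL2L2 stayed called in both comparisons without that library. With scaling to mitochondrial mRNAs BCL2L1 was not called for the lapatinib combination (0.28, adjusted p = 0.181 in edgeR). For the nilotinib combination it stayed called on that scale (0.44, adjusted p = 0.0326 in edgeR).

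BAX was lower in the lapatinib combination, with a log2 FC of -0.50, and stayed called without replicate 2 of 1.0 μM THZ531 at -0.36. In the nilotinib combination its difference of -0.30 was not called without that library (-0.16, adjusted p = 0.186 in edgeR), nor without replicate 2 or 3 of the combination. Of the BH3-only genes, BCL2L11 was higher by 0.54 and BBC3 by 0.88 in the lapatinib combination, and without that library by 0.33, still called, and by 0.64 (adjusted p = 0.162 in edgeR). The BBC3 call was also lost without replicate 2 or 3 of the combination. PMAIP1 was higher by 0.29 at an adjusted p of 0.0418 in edgeR, a call lost in 8 of the 21 fits that left out a library. In the nilotinib combination BCL2L11 (0.40, adjusted p = 0.050002 in edgeR, just over the threshold) and BBC3 (0.62) were not called. With the replicate number as a block BCL2L11 was called (0.41, adjusted p = 0.0461 in edgeR). BID differed by 0.02 (CI -0.16 to 0.19) and -0.02 (CI -0.20 to 0.15). Library size alone and upper-quartile scaling gave 3 lower and 4 higher for the lapatinib combination. Scaling to mitochondrial mRNAs gave 2 and 2 for the lapatinib combination (16% and 5.96% of all tested genes). For the nilotinib combination it gave 1 and 2 (9.68% and 5.36%).

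**Figure D3:**
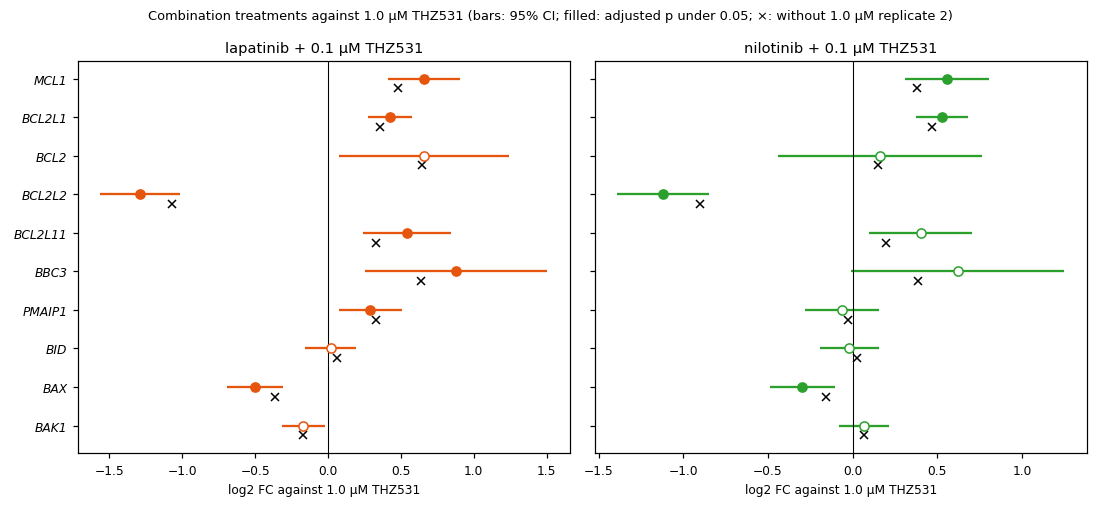
log2 FC of each combination against 1.0 μM THZ531 (x axes) for the 10 genes, with 95% CI from edgeR, filled points at an adjusted p under 0.05, and crosses for the fit without replicate 2 of 1.0 μM THZ531. BCL2L2 lies at -1.29 and -1.12 and at -1.07 and -0.90 without that library, while the crosses of BAX, BCL2L11 and BBC3 lie nearer to 0 than the points.

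The combinations were also set against each other, and lapatinib against nilotinib. Between the combinations 0 of 10 members were called in edgeR, beside 1.47% of all tested genes. At an unadjusted p under 0.05 in edgeR there were 3 (PMAIP1, BAX and BAK1), and DESeq2 called 1 (PMAIP1). PMAIP1 was 0.36 higher with lapatinib (CI 0.14 to 0.57, adjusted p = 0.0997 in edgeR), and BAK1 had a log2 FC of -0.24 (CI -0.38 to -0.09). For both genes the libraries of the combinations did not overlap. With the replicate number as a block, in a fit of the 12 libraries whose numbers pair, PMAIP1 was called (0.36, adjusted p = 0.0246 in edgeR), beside 4.75% of all tested genes. The interval of MCL1 was -0.14 to 0.35 and that of BCL2L1 -0.26 to 0.05. Between lapatinib and nilotinib alone 0 of 10 were called in edgeR, beside 0.904% of all tested genes. At an unadjusted p under 0.05 in edgeR there were 2 (BCL2L11 and BAK1), and DESeq2 called 0. BCL2L11 was 0.35 higher with lapatinib (CI 0.05 to 0.66).

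Counts of 2 genes within a library can be compared without any scaling between libraries, and the balance of BH3-only to survival mRNA was therefore read as the count ratio to MCL1. With 3 against 3 libraries an exact two-sided permutation test cannot go below p = 0.1. Per 100 reads of MCL1, BCL2L11 had 2.09 reads in DMSO, 4.97 with the lapatinib combination, 4.85 with the nilotinib combination and 5.35 with 1.0 μM THZ531. The log2 ratio rose by 1.25, 1.21 and 1.35 (each p = 0.1, exact). The ratio was alike in the 3 libraries of 1.0 μM THZ531 (SD 0.0731), replicate 2 included, in which both genes were low.

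BBC3 had 0.179 reads per 100 of MCL1 in DMSO and 0.988, 0.901 and 0.845 in the 3 strong treatments, a change of the log2 ratio by 2.47, 2.33 and 2.24 (each p = 0.1, exact). PMAIP1 had 4.54 reads per 100 in DMSO and 13.9, 11.7 and 18.2 in the 3 treatments, a change by 1.61, 1.36 and 2.00 (each p = 0.1, exact). In all 9 treated libraries these 3 ratios lay above those of every DMSO library. The share of all genes that did so against MCL1 is not given here. With 0.1 μM THZ531 the ratio of BCL2L11 changed by 0.40 and that of BBC3 by 0.39 (each p = 0.1, exact), and that of PMAIP1 by 0.000806 (p = 1, exact). With nilotinib the BCL2L11 ratio changed by -0.43 (p = 0.1, exact).

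The effectors and BCL2L1 behaved otherwise against MCL1. The BCL2L1 ratio changed by -0.30, -0.09 and -0.04 (p = 0.1, 0.3 and 0.8, exact), and the last ranged from -0.18 to 0.10 when 1 library was left out. The BAK1 ratio changed by -0.76, -0.42 and 0.09 (p = 0.1, 0.1 and 0.8, exact), and the BAX ratio by -0.24, 0.07 and 0.94 (p = 0.2, 0.8 and 0.1, exact). Without replicate 2 of 1.0 μM THZ531 the BAX change was 0.61 and the BAK1 change -0.12.

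**Figure D4:**
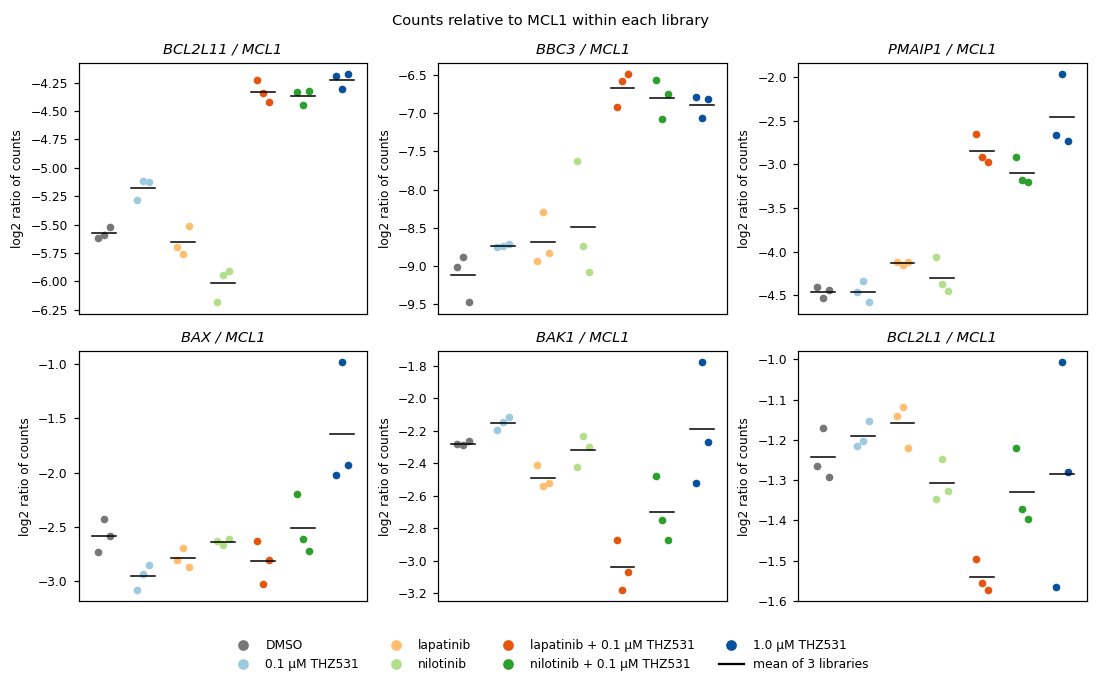
log2 ratio of counts of 6 genes to MCL1 within each library (y axes), grouped and coloured by treatment, with lines at the mean of 3 libraries. The ratios of BCL2L11, BBC3 and PMAIP1 lie higher in all libraries of the combinations and of 1.0 μM THZ531 than in DMSO, and the BAX ratio of 1.0 μM THZ531 spreads widely (SD 0.573). MCL1 itself was lower in these groups than in DMSO.

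Across the 21 libraries the 10 genes fell into patterns that crossed their roles, given here as descriptions over libraries that share groups and scaling. Pearson's r of log2 CPM was 0.955 between MCL1 and BCL2L1, 0.901 between BCL2L1 and BCL2, and 0.918 between BCL2L1 and BAK1. BCL2L2 went with BAX (0.907) rather than with MCL1 (0.229), and BCL2L11 ran against BAX (-0.902). These values include replicate 2 of 1.0 μM THZ531, the highest of its group in BCL2L2 and BAX and the lowest in MCL1 and BCL2L11. Correlations without that library were not computed. Outside the lists used here, and among 10453 protein-coding genes whose log2 CPM averaged 1 or more, the genes most like MCL1 over 21 libraries were USPL1 (r = 0.993), BCL10 (0.991) and RBM7 (0.990). Those most like BCL2L1 were CDC37L1 (0.987), NOC3L (0.986) and MTMR12 (0.986). Those most like BCL2L11 were LRRC8B (0.950), RBM14 (0.937) and TFG (0.935), and those most like BBC3 were TPBG (0.935), CCN1 (0.918) and TRIB1 (0.909).

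Loss of CDK12 activity is known to reduce long genes in particular, and the members were therefore set beside genes of their own length. Protein-coding genes under 10 kb had a median log2 FC of 0.34, 0.23 and 0.22 in the 3 strong treatments, those of 10 to 50 kb of -0.13, -0.11 and -0.09, and those over 50 kb of -0.20, -0.14 and -0.18. MCL1 (5.05 kb), BCL2L2 (4.92 kb), BAX (6.92 kb) and BAK1 (7.72 kb) are under 10 kb and fell with the lapatinib combination, in which 28.8% of the 2828 genes of that length were called lower and 47.1% higher. PMAIP1 (4.31 kb) is as short and rose. BBC3 (12.04 kb), BID (40.5 kb) and BCL2L11 (47.5 kb) are in the middle class and rose with this combination, where 43.2% of 5892 genes fell and 32.9% rose. BCL2L1 (59.5 kb) and BCL2 (197 kb) are in the long class and fell, with 44.5% of 5027 genes. In the lapatinib combination 7 of the 10 members moved against the sign of the median of their length class and 3 with it. Calls against that sign were common among all genes of the classes, at 28.8% under 10 kb, 32.9% at 10 to 50 kb and 27.3% over 50 kb. The signs are those of TMM scaling. Scaling to mitochondrial mRNAs moved the median of all tested genes to -0.69, and medians by length were not computed on that scale. The part of length in these changes was not tested.

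The wider death pathway was read from 6 further lists. Of the 13 caspases and mitochondrial release factors, 10 were lower and 1 higher in each of the 3 strong treatments, with a median log2 FC of -1.56, -1.10 and -1.20 against -0.01 over all tested genes. Of all tested genes 37.8%, 37.3% and 36.8% were called lower and 34.3%, 33.7% and 33.1% higher in these treatments, and the counts of this and the next lists are to be read against those shares. CASP8, the initiator caspase of death receptors, had log2 FC of -2.53, -2.52 and -2.22. CYCS, which encodes cytochrome c, was the gene that rose (0.55, 0.38 and 0.50). Of the 8 genes of the death receptor pathway, 7 were lower and 0 higher in each, among them the adaptor FADD (-2.45, -2.54 and -2.61) and the TNF receptor gene TNFRSF1A (-2.63, -2.57 and -2.24). The list median was -1.33, -1.28 and -1.21.

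Genes that restrain caspases fell as well. Of 5 inhibitor of apoptosis genes tested out of 6, 4 were lower in each strong treatment and 0, 1 and 1 were higher, with medians of -1.17, -1.07 and -1.20. BIRC3 had log2 FC of -2.41, -2.07 and -1.85, and XIAP, which blocks caspases directly, of -1.72, -1.60 and -0.998. Of 8 genes of MCL1 turnover, 5 were lower in each and 2, 1 and 2 higher, with medians of -0.37, -0.30 and -0.42. USP13, a deubiquitinase that stabilizes MCL1, was at -1.11, -1.03 and -1.11 and BTRC, a ubiquitin ligase subunit, at -0.80, -0.54 and -0.96. TRIM17, a ubiquitin ligase, was called higher at 1.27, 1.79 and 1.41 from a mean of 0.115 CPM in DMSO to 0.279, 0.399 and 0.306 CPM.

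The remaining BCL2 family genes were mixed. Of 13, 10 were tested, of which 3, 3 and 3 were lower and 4, 5 and 4 higher, with medians of 0.22, 0.45 and -0.14. The share called lower was close to that of all tested genes. BMF, a BH3-only gene, was lower by -1.70, -1.88 and -1.68 and so moved against the 4 BH3-only members, and BOK, a relative of BAX and BAK1, was at -0.75, -0.57 and -0.70. BNIP3L (0.84, 0.85 and 0.82) and BNIP3 (0.73, 0.68 and 0.58), which act in mitophagy, rose.

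Known regulators of the BH3-only genes were mixed too. Of 8 such genes, 3 were lower in each and 3, 4 and 2 higher, with medians of 0.18, 0.19 and -0.11, again with a share of lower calls close to that of all tested genes. MYC rose (1.17, 1.17 and 0.97), and TP73 (-3.12, -3.03 and -2.78) and DDIT3 (-1.13, -1.67 and -1.81), the gene of CHOP, fell.

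With the single treatments few of the 52 tested genes of these 6 lists were called, 1 with lapatinib, 1 with nilotinib and 3 with 0.1 μM THZ531. Of all tested genes 0.312%, 0.343% and, for 0.1 μM THZ531, 4.31% lower and 1.78% higher were called, so that the last count is near the share of all genes.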

How the data were processed

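RNA-seq counts of 21 libraries from Hs578T cells (7 groups of 3 replicates, from separate experiments according to the study) were used as the authors deposited them, as raw counts per NCBI gene. Per the labels and the methods of the study, polyadenylated RNA was read as 100-base pairs without strand, aligned with HISAT2 2.1.0 to GRCh38 and counted with featureCounts, whose version is not given in the sources used here. The authors normalized and tested with DESeq2. A count over these genes does not separate isoforms, and exon use and protein were not analysed here. Even counts were in excess in the table, and a fit on halved counts was run for this reason.

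Here genes were kept by edgeR's filterByExpr (16036 of 28395), scaled by TMM and tested with edgeR 4.0.16 (R 4.3.3, quasi-likelihood, 1 mean per group over all 21 libraries, 17 contrasts). P-values were adjusted by Benjamini-Hochberg over all tested genes, with a call at an adjusted p under 0.05 and 95% CI from the fit. CPM are scaled by TMM, with a prior count of 2 for log2 CPM. Ratios to MCL1 were compared by exact two-sided permutation tests. The total of 97612207 to 112229052 counts per library leaves counting error large only for BCL2 and BBC3. On simulated counts 164 of 200 changed genes were recovered with 10 false calls among 15501 genes. Only these 200 genes were changed there, in 1 group and with as many rises as falls. The simulation therefore cannot vouch for calls or scaling in the strong treatments, where most tested genes were called. The alternatives were other scalings (RLE, library size, upper quartile, 13 mitochondrial mRNAs), no filter on low counts, at least 10 counts in each library, a replicate block, halved counts, only the groups compared, and DESeq2 1.42.0; each library was also left out in turn. The deviations of libraries with the same replicate number correlated above 0.1 in all 3 pairs in the 4 contrasts among lapatinib, nilotinib and the combinations (0.239 to 0.928), and a fit of these 12 libraries with the replicate number as a block was added after seeing the data. Of each further list, the genes named are those called with 1 sign in all 3 strong treatments, at most 2 per direction by mean log2 FC, and some genes that met this rule and 1 further list are not reported here. The members and lists were chosen with earlier results of these data known.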

Additional observations from a re-analysis of the deposited data

Results flagged for a closer look

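The tests of a difference between treatments picked out 27 values, all for the 10 genes. They share DMSO or 1.0 μM THZ531 libraries and are not independent of each other.

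The first set is the difference between a combination and 1.0 μM THZ531, that is, between their changes against the same DMSO libraries, as tested in edgeR. For the lapatinib combination it passed for MCL1 (0.66), BCL2L1 (0.42), BCL2L2 (-1.29), BCL2L11 (0.54), BBC3 (0.88), PMAIP1 (0.29) and BAX (-0.50). For the nilotinib combination it passed for MCL1 (0.56), BCL2L1 (0.53), BCL2L2 (-1.12) and BAX (-0.30). Replicate 2 of 1.0 μM THZ531 moves with these values, being the lowest of its group in MCL1 and BCL2L11 and the highest in BCL2L2 and BAX. BCL2L2, MCL1 and BCL2L1 were called without it in both comparisons. With scaling to mitochondrial mRNAs BCL2L1 lost its call for the lapatinib combination.

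The second set is the interaction term, which tests whether the change with 0.1 μM THZ531 differed with and without the second inhibitor. With lapatinib it passed for MCL1 (-0.62), BCL2L1 (-1.05), BCL2 (-1.41), BCL2L2 (-1.002), BBC3 (1.04), PMAIP1 (0.66), BID (0.49) and BAK1 (-1.30). With nilotinib it passed for MCL1 (-0.72), BCL2L1 (-0.80), BCL2 (-1.86), BCL2L2 (-0.87), BCL2L11 (0.51), PMAIP1 (0.45), BID (0.30) and BAK1 (-1.24). The share of counts on mitochondrial mRNAs also moved, from 1.25% in DMSO to 1.60% and 1.56% in the combinations, and its part in these values was not tested beyond the scaling to those mRNAs.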

How the results depend on the processing

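The 6 lower and 4 higher calls of each combination against DMSO were kept in count in all 21 fits that left out a library. Scaling to 13 mitochondrial mRNAs gave 2 higher with the lapatinib combination (5.3% of all tested genes) and 1 with the nilotinib combination (4.83%). It gave 0 higher with 1.0 μM THZ531 (4.35%) and with 0.1 μM THZ531 (0.256%). It gave 4 called between the lapatinib combination and 1.0 μM THZ531 (16% of all tested genes lower and 5.96% higher). It turned BID to -0.086 (lapatinib combination), -0.059 (nilotinib combination), -0.22 and -0.19 (each against 0.1 μM THZ531), -0.093 (1.0 against 0.1 μM) and -0.057 and -0.13 (interactions). It also turned BCL2L11 to -0.0078 (nilotinib combination) and -0.34 (1.0 μM THZ531), and BCL2L2 to -0.49 (1.0 μM THZ531) and -0.23 (1.0 against 0.1 μM). Against 0.1 μM THZ531 it turned BCL2L11 to -0.42 (lapatinib combination) and -0.50 (nilotinib combination), both called lower. BAX was turned to -0.48 (1.0 against 0.1 μM) and called lower. Library size alone turned BCL2L2 to -0.22 and BCL2L11 to -0.038 with 1.0 μM THZ531. With 0.1 μM THZ531, BAX was the 1 gene called lower with library size alone, with only the groups compared and with DESeq2, and 0 were higher with library size alone and 2 with DESeq2. Only the groups compared gave 4 and 2 called for the combinations against 1.0 μM THZ531, and DESeq2 gave 1 called between the combinations. The scaling values follow from the choice of reference, and the cause of the others was not tested.

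Without 1 library, counts with 0.1 μM THZ531 were 0 to 1 lower and 0 to 1 higher, and BCL2L2 with 1.0 μM THZ531 ranged from -0.18 to 0.17 (-0.00013 and -0.0089 without DMSO replicate 1 or 3). Ratios to MCL1 that changed sign were BCL2L1 with 1.0 μM THZ531 (-0.18 to 0.10), PMAIP1 with 0.1 μM THZ531 (-0.062 to 0.061), BAX with nilotinib (-0.13 to 0.024) and its combination (-0.087 to 0.18), and BAK1 with nilotinib (-0.083 to 0.013) and 1.0 μM THZ531 (-0.12 to 0.26). Per kilobase of the longest transcript, DMSO levels were 57.0 for MCL1, 33.6 for BCL2L1, 32.0 for BAX, 24.2 for BAK1, 8.02 for BID, 6.21 for PMAIP1, 5.26 for BCL2L2, 1.05 for BCL2L11, 0.254 for BBC3 and 0.250 for BCL2 (CPM per kilobase). Replicate numbers paired the samples in 4 of 15 contrasts and not in the others, and over all groups the mean correlation of deviations was 0.177 for the same number and -0.081 for different numbers. The replicate block over all groups moved the BBC3 interaction with lapatinib to an adjusted p of 0.0535 and BCL2L11 in the nilotinib combination against 1.0 μM THZ531 to 0.0461 in edgeR, and changed no other call of a member. In the 4 paired contrasts, the block in a fit of their own 12 libraries gave 1 call between the combinations (PMAIP1) in place of 0, and changed no other call of a member. Depth limits the changes of BCL2 and BBC3.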
